A study of Mus musculus with 4 samples.

Results

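The mammalian circadian clock is a transcriptional loop in which BMAL1, the product of Arntl, pairs with CLOCK or its relative NPAS2 and activates genes that carry E-box elements. Among those genes are the Per genes, whose proteins join cryptochromes to inhibit the pair, and Nr1d1 and Nr1d2, which encode REV-ERB receptors that repress Arntl, Clock and Npas2 through ROR response elements. The same pair drives Dbp and Tef, PAR-bZIP transcription factors that carry the rhythm to other genes through D-box elements, so the activators and the genes they drive normally peak at opposite times of day, in lung as in other tissues.

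The 10 genes described here are the activators Arntl, Clock and Npas2, the repressors Per1, Per2, Per3, Nr1d1 and Nr1d2, and the output genes Dbp and Tef. They were chosen by the gene name that the array files give each probe, which found all 10 and their 19 probes among 27606 gene names and 41174 gene probes. Their expression was measured by array in alveolar type II cells, which make surfactant and line the alveoli together with flat type I cells, after flow sorting from dissociated mouse lung. There were 4 groups: Tlr3-deficient mice with tumor, Tlr3-deficient mice without tumor, wild-type (WT) mice with tumor and WT mice without tumor. Tlr3 is an endosomal sensor of double-stranded RNA, and the Tlr3-deficient mice are labelled Tlr3-/-, with no tissue restriction of the deletion given. The tumor was Lewis lung carcinoma, a mouse lung cancer line, placed under the skin 2 weeks before the lungs were taken, so the tumor lay outside the lung when it was placed. All mice are labelled female. Mouse strain, age, the number of mice behind an array and the hour of harvest are not given in the sources used here, and clock transcripts differ with the hour. Harvest hour and group therefore cannot be told apart in any comparison below.

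With 1 array in each group, no difference could be set against a spread between samples, and there are no p-values. Values are log2 processed intensity minus the 75th percentile of the same array, called the level. A gene is called when its levels on both arrays differ by at least 2-fold, which is 1 on the log2 scale. Where only 1 array of a pair was well above background, the other level was taken as no lower than the lowest probe that passed on its array. Such a difference is a bound. With tumor, 607 of 1528 calls over all genes were bounds in Tlr3-deficient mice and 542 of 1300 in WT mice. The 75th percentile lay between 555 and 904 intensity units, 61.0% to 65.4% of gene spots were well above background, and no spot was saturated. All 19 probes of the clock genes were well above background on all 4 arrays and none was flagged, so none of their differences is a bound. A gene with several probes is represented by its brightest one. The markers fixed for type II cells were all well above background (10 of 10 on each array). Both Tlr3 probes were dim, and the labels do not say whether they lie in the deleted stretch. The brighter one (mm9 chromosome 8, 46481729 to 46481788, minus strand) differed by -1.35 log2 between the Tlr3-deficient and the WT array with tumor, where both passed the background flag. Without tumor it failed the flag in Tlr3-deficient cells, at a level of -5.45 against -3.93 in WT cells. The array labelled Tlr3-deficient without tumor goes against the labelled sex. It alone had 4 of 4 Y-linked genes well above background, and Xist, which coats the inactive X chromosome of females, was lower there, at -4.05 against 4.05 on the WT array without tumor. The tumor comparison in Tlr3-deficient mice and the genotype comparison without tumor rest on this array and have no version without it. The WT tumor comparison and the genotype comparison with tumor do not use it. The 4 arrays came from 3 slides, every comparison sets arrays of different slides against each other, and the slide cannot be told apart from the group.

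The probes below are those that read each clock gene with at least 1 called difference, and so are the stretches of transcript that the values describe. They are printed as the array files give them, with no part marked, and their mm9 positions follow.
Arntl probe: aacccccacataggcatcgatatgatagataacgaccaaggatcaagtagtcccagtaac
Npas2 probe: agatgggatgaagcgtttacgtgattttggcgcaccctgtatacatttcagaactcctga
Per1 probe: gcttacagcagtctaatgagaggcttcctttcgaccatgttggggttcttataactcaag
Per2 probe: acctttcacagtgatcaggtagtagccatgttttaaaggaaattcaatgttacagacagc
Nr1d1 probe: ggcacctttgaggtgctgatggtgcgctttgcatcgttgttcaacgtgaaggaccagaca
Nr1d2 probe: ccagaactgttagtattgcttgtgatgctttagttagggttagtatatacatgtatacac
Dbp probe: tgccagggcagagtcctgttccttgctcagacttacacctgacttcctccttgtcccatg
Tef probe: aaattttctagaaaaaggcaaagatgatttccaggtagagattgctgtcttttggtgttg
On mm9 these lie at chr7:120456978-120457037 (plus strand, Arntl), chr1:39418941-39419000 (plus, Npas2), chr11:68922878-68922937 (plus, Per1), chr1:93313046-93313105 (minus, Per2), chr14:19037253-19037312 (minus, Nr1d2), chr7:52965265-52965324 (plus, Dbp) and chr15:81656928-81656987 (plus, Tef). The Nr1d1 probe spans 503 bases of genome at chr11:98630526-98631028 (minus strand), so its 60 bases cross an intron and match spliced RNA. The probes of Arntl, Npas2, Per1, Nr1d2 and Tef, and the probe that represents Clock, sit in array columns 52 to 85. Those of Per2 (column 49), Per3 (26), Nr1d1 (6) and Dbp (29) sit in columns 1 to 51, where replicate spots of other probes scatter more on the WT array without tumor. For WT with against without tumor, the log2 differences of replicate spots had a standard deviation (SD) of 0.342 in columns 1 to 51 (899 spots) and 0.116 in columns 52 to 85 (650 spots).

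Promoter windows are shown next because the loop runs through short elements near the start sites of these genes. RefSeq windows from 250 bases before to 50 bases after a start site (GRCm38.p6, used for sequence only) matched 9 of the 10 genes, in 14 windows, and none matched Per2. On both strands the search covered the E-box CACGTG and its variant CACGTT, the D-box TTATGNAA, and 2 forms of the ROR response element, TAGGTCA and TGGGTCA. Of all 32851 windows, 7.15% hold CACGTG, 4.68% CACGTT, 3.38% TTATGNAA, 2.61% TAGGTCA and 3.98% TGGGTCA. The 4 windows shown are those with a ROR element, an E-box variant or a D-box, with the matched letters in capitals.
Arntl promoter: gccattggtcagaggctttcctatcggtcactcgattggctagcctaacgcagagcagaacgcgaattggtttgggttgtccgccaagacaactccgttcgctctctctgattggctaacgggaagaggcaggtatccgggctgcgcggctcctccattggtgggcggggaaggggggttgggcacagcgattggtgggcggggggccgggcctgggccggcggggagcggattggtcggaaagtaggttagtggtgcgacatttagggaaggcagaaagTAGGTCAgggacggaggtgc
Per1 promoter: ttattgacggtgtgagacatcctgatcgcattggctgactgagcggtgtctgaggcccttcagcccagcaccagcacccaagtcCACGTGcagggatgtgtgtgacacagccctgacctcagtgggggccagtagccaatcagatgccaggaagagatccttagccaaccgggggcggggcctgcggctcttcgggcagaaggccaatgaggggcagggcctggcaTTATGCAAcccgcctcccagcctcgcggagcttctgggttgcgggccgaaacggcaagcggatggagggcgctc
Per3 promoter: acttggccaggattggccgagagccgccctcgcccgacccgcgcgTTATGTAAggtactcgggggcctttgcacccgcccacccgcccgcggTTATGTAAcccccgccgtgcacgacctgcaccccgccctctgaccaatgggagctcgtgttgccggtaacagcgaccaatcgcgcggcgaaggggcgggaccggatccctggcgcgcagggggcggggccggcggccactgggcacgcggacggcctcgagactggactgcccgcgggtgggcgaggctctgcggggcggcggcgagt
Nr1d1 promoter: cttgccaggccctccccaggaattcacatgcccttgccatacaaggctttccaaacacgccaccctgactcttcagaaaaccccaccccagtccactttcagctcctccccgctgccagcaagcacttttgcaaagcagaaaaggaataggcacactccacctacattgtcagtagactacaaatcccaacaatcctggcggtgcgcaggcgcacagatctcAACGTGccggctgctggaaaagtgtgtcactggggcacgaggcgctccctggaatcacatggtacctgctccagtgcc
The Arntl window (chr7:113207261-113207560, plus strand) holds TAGGTCA at position 31 after the start site. The Per1 window (chr11:69098699-69098998, plus strand) holds CACGTG at -166 and a D-box match at -24. Per3 (chr4:151044616-151044915, minus strand) has D-box matches at -205 and -158. In Nr1d1 (chr11:98775328-98775627, minus strand) the variant CACGTT lies on the opposite strand at -28, so it is printed as AACGTG. Both windows of Tef hold CACGTG, at -127 and -138. No match was found in the windows of Clock, Npas2, Nr1d2 and Dbp, which says only that these letters are not in those windows. A match is a description of the letters and not a measured binding site.

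In WT mice, 7 of the 10 clock genes were called with tumor, 2 higher and 5 lower. Of all 17998 genes tested in this comparison, 7.22% were called in either direction, 5.66% higher and 1.56% lower. These shares include genes dim on 1 array, which no clock gene was. Among 15806 genes well above background on all 4 arrays, 550 were called higher and 150 lower. The activator arm and the genes it drives lay on opposite sides of 0, apart from Clock, which was near 0. All 3 activators were above 0, with a median log2 difference of 1.03, and all 5 repressors and both output genes were below 0, with medians of -1.24 and -2.16, against a median of 0.00 over all genes tested. The median of the repressor and output genes minus that of the activators was -2.58, a value that a constant shift between arrays cannot move.

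**Figure D1:**
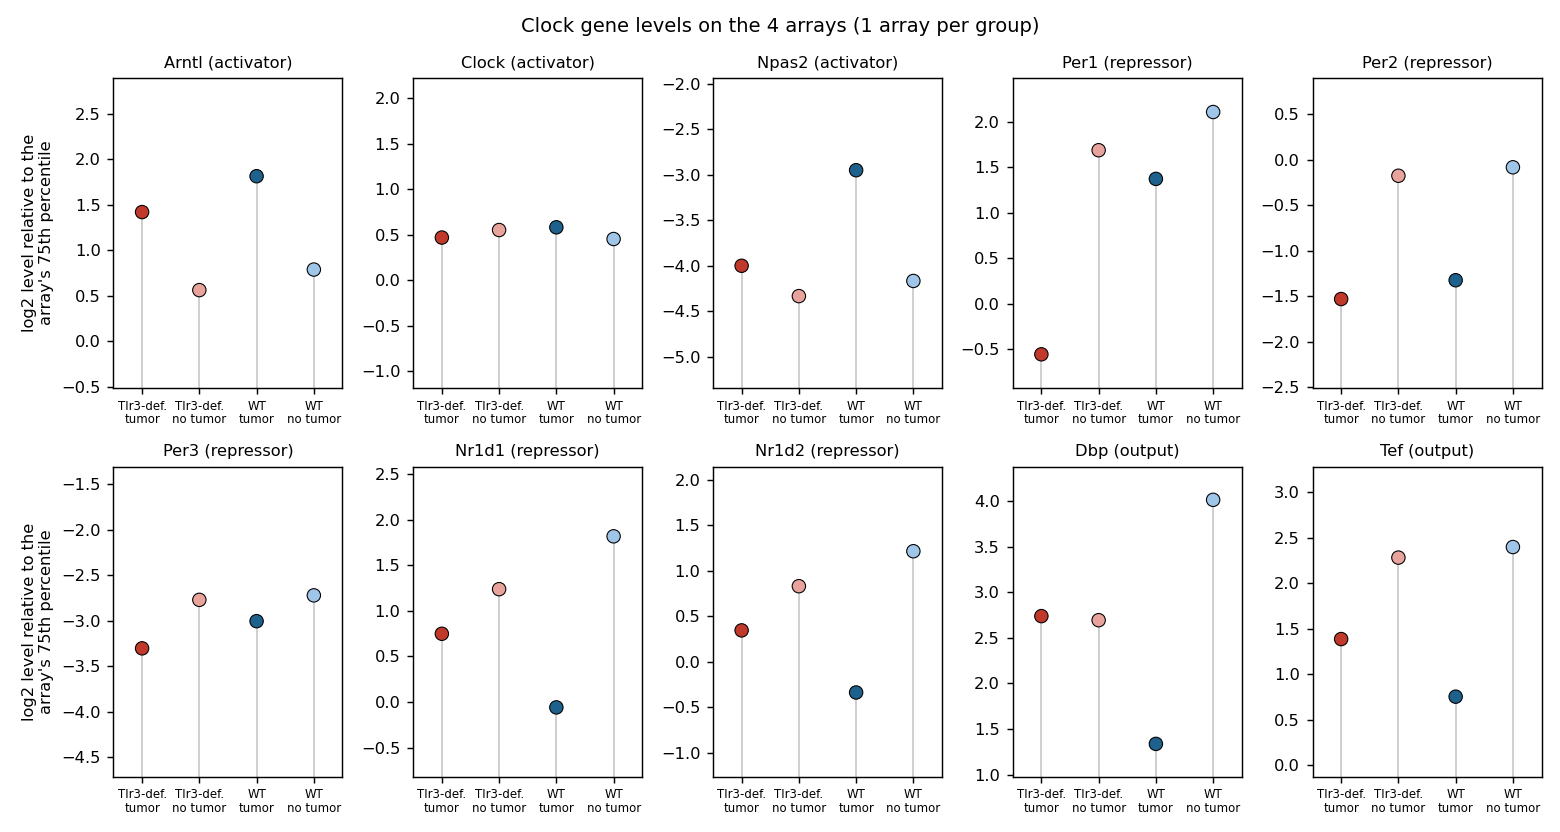
Level of each clock gene on each array, in log2 processed intensity relative to the 75th percentile of that array, with 1 point per array and the same span on every vertical axis. Dbp, Nr1d1, Nr1d2 and Tef are lowest on the WT tumor array and highest on the WT array without tumor, while Per1 is lowest on the Tlr3-deficient tumor array.

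Dbp, which binds D-boxes and is among the most strongly cycling transcripts of the clock output, had the largest tumor difference of the 10 genes in WT. Its level was 2.74 with and 2.70 without tumor on the Tlr3-deficient arrays, and 1.34 with and 4.02 without tumor on the WT arrays. The WT tumor array was thus the low one and the WT array without tumor the high one, with both Tlr3-deficient arrays between them. The processed intensity, which is not scaled between arrays, was 2010 on the WT tumor array and 8990 on the WT array without tumor. The 75th percentiles of these arrays were 796 and 555. The log2 difference in WT was -2.68, a 6.42-fold lower level, with a standard error of 0.20 from the scanner's error model, which covers the spot and not animals. Among 15806 genes that passed the background flag on every array, Dbp had the 5th lowest difference. Tef, the second PAR-bZIP factor, read 1.38 with and 2.28 without tumor on the Tlr3-deficient arrays, and 0.75 with and 2.40 without tumor on the WT arrays. Both tumor arrays were below both arrays without tumor. In WT the difference was -1.64 (3.13-fold lower, rank 22 from the lowest), and the other probes of Tef were lower too, so all 4 lay between -1.64 and -1.24.

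Nr1d1, which encodes REV-ERB alpha, had levels of 0.75 and 1.24 on the Tlr3-deficient arrays with and without tumor, and of -0.06 and 1.82 on the WT arrays with and without tumor. As for Dbp, the 2 WT arrays were the extremes. The log2 difference in WT was -1.88 (3.68-fold lower, rank 14 from the lowest), and all 3 of its probes were lower, from -1.88 to -1.36. Nr1d2, which encodes REV-ERB beta, read 0.35 with and 0.83 without tumor on the Tlr3-deficient arrays, and -0.34 with and 1.22 without tumor on the WT arrays. It kept the same order of arrays as Nr1d1. Its single probe differed by -1.55 in WT (2.93-fold lower, rank 29 from the lowest).

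The period genes differed less in WT. Per2, a partner of the cryptochromes, read -1.53 with and -0.18 without tumor on the Tlr3-deficient arrays, and -1.32 with and -0.08 without tumor on the WT arrays. Both tumor arrays were low and both arrays without tumor high. The WT difference was -1.24 (2.36-fold lower), but the dimmer Per2 probe (chr1:93336538-93336597, minus strand) differed by only -0.23, and the mean of both probes (-0.74) was not past 2-fold. Per1, which also responds quickly to glucocorticoids and other signals, differed by -0.73 in WT (1.66-fold lower), and Per3, which is less essential to the loop, by -0.28. Neither was called. The level of Per3 lay between -3.30 and -2.72 over the 4 arrays, the narrowest range of the repressors. Its single probe was dim, with processed intensities from 84.1 to 111.

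Arntl, the activator without a substitute in the loop, read 1.42 with and 0.56 without tumor on the Tlr3-deficient arrays, and 1.81 with and 0.79 without tumor on the WT arrays. Both tumor arrays were above both arrays without tumor. The WT difference was 1.03 (2.04-fold higher, rank 513 from the highest), just past the threshold, and was 0.88 with median centring and 0.84 with normexp background correction, so the call ended under both. Npas2, which can take the place of CLOCK, was dim. Its processed intensities, before scaling between arrays, were 56.5 and 37.6 on the Tlr3-deficient arrays with and without tumor. They were 103 and 30.9 on the WT arrays with and without tumor. The WT tumor array was the high one. Its WT difference of 1.22 (2.32-fold higher) had an error-model standard error of 0.29 and was 0.25 with normexp, which adds 50 to each corrected intensity. Clock itself hardly differed, with levels of 0.47 and 0.55 on the Tlr3-deficient arrays with and without tumor, and 0.58 and 0.45 on the WT arrays with and without tumor. Its WT difference was 0.13, and was -0.02 with median centring and -0.04 with normexp, so its sign turned with the scaling. Of its dimmer probes, 2 differed by 0.11 and 0.43, and the third, in array column 22, by 1.57.

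**Figure D2:**
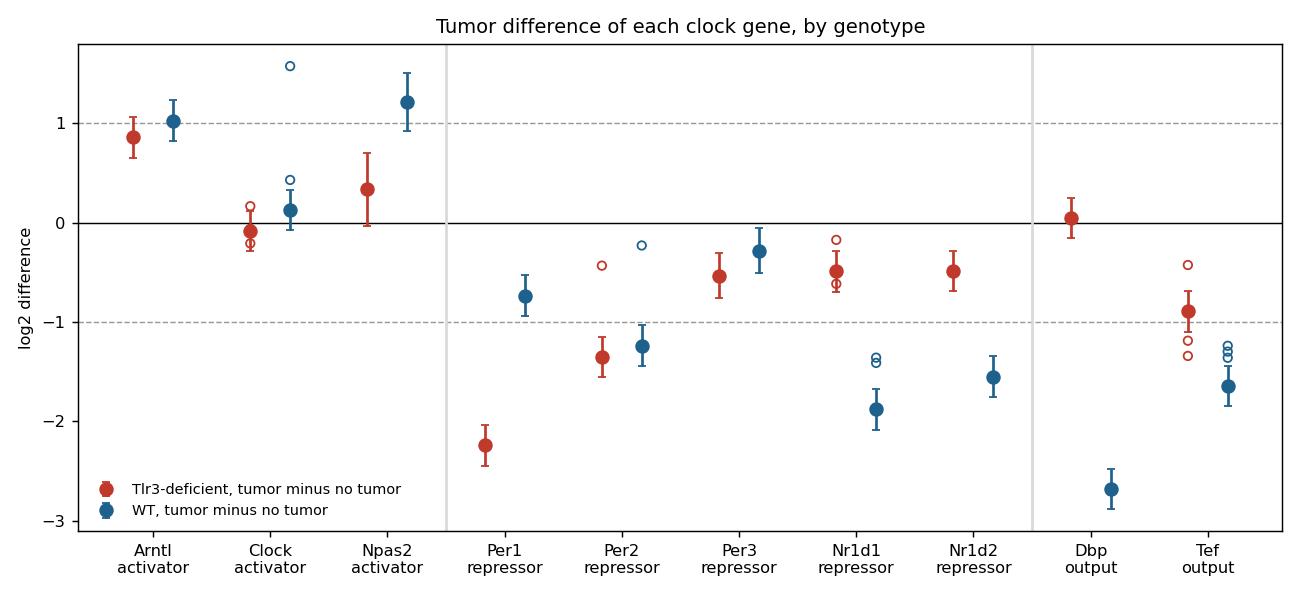
Log2 difference between tumor and no tumor for each clock gene in Tlr3-deficient and WT mice, 1 array per group. Filled points are the brightest probe with the standard error of the scanner's error model, open points the gene's other probes, and dashed lines mark 2-fold. The largest gap between genotypes is that of Dbp, at 0.04 in Tlr3-deficient and -2.68 in WT mice.

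In Tlr3-deficient mice, 2 of the 10 genes were called with tumor, both lower, and both were period genes. Of 18179 genes tested, 8.41% were called in either direction, 3.89% lower and 4.51% higher. The activators had a median of 0.33, the repressors -0.53 and the output genes -0.43, and the median of the repressor and output genes minus that of the activators was -0.87. The median over all genes tested was -0.01. The 5 repressors were all below 0, as in WT, whereas Dbp was at 0.04 (-0.03 with normexp) and Clock at -0.08. Per1 read -0.56 with and 1.69 without tumor on the Tlr3-deficient arrays, and 1.37 with and 2.11 without tumor on the WT arrays. The Tlr3-deficient tumor array stood apart as the low one. Its processed intensity for Per1, before scaling between arrays, was 615 where the other 3 arrays had 2060 to 2440. The difference was -2.24 (4.73-fold lower), the 17th lowest of 15806 genes. Per2 differed by -1.35 (2.56-fold lower), with its dimmer probe at -0.43 and the mean of both probes at -0.89, under 2-fold.

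None of the remaining 8 genes reached 2-fold in Tlr3-deficient mice. Arntl (0.86, 1.81-fold higher) and Tef (-0.90, 1.86-fold lower) came nearest. For Tef, 2 of its dimmer probes were past 2-fold, at -1.34 and -1.19, and the fourth was at -0.43. Nr1d1 and Nr1d2 differed by -0.49 each and Per3 by -0.53, while Npas2 differed by 0.33 with an error-model standard error of 0.36.

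**Figure D3:**
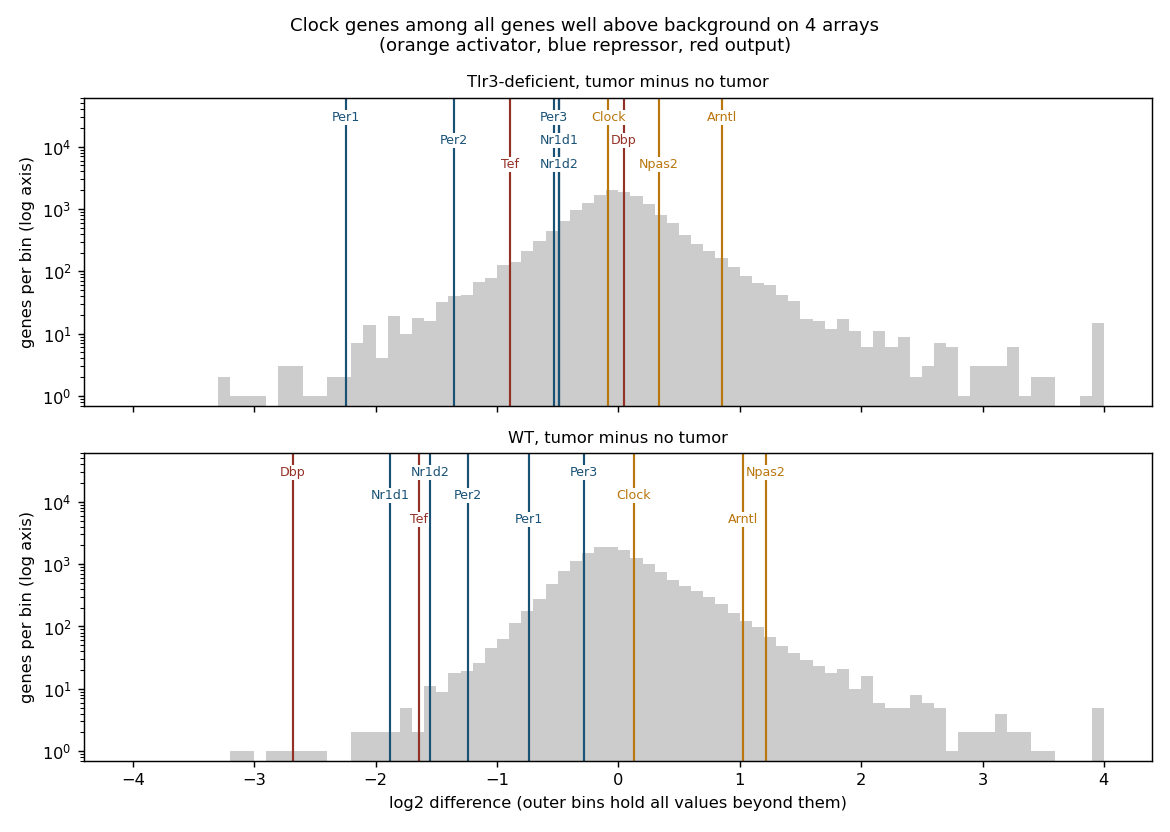
Distribution of the log2 tumor difference over 15806 genes that passed the background flag on every array, in bins of 0.1 with the number of genes on a log axis, for Tlr3-deficient mice (top) and WT mice (bottom), with the clock genes as vertical lines. In WT the percentiles 5 and 95 of all these genes were -0.60 and 0.87, and 8 of the 10 lines fall outside them. In Tlr3-deficient mice the same percentiles were -0.72 and 0.77, and 4 lines fall outside.

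The tumor differences of both genotypes were set side by side for each gene, as the Tlr3-deficient difference minus the WT difference. They share no array. Of the 10 genes, 4 had a gap of at least 2-fold, 3 of them higher and 1 lower, where 6.65% of 15806 genes measured above background throughout had such a gap, 2.12% higher and 4.53% lower. The gap was 2.73 for Dbp, 1.39 for Nr1d1 and 1.07 for Nr1d2, which were lower with tumor in WT and under 2-fold in Tlr3-deficient mice, and -1.51 for Per1, with a lower level in the Tlr3-deficient tumor array. Tef (0.75) and Npas2 (-0.88) lay between 1.5-fold and 2-fold. The other probes of Tef had gaps of 0.81, 0.17 and -0.04, and the mean of all its probes one of 0.42, while the gap of Npas2 was -0.09 with normexp. The gaps of Arntl (-0.17), Clock (-0.21), Per2 (-0.11) and Per3 (-0.25) were under 1.2-fold in size at the brightest probe. For Clock the mean of all probes gave -0.61, with the probe in column 22 at -1.41. With 1 array in each of the 4 groups, none of these gaps can be tested, and all of them rest in part on the array that goes against its labelled sex.

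Without tumor, 1 of the 10 clock genes was called between Tlr3-deficient and WT mice, a share near that of all genes, of which 8.22% of 17666 were called, 5.88% higher and 2.34% lower in Tlr3-deficient cells. Dbp was the called gene, at 2.70 in Tlr3-deficient and 4.02 in WT cells (-1.32 log2, 2.50-fold lower), and it was -0.80 with normexp. In all, 9 of the 10 genes were below 0 (median -0.20, against -0.04 over all genes tested), with Nr1d1 (-0.58), Per1 (-0.42) and Nr1d2 (-0.38) next, and Clock at 0.10. The arms were close, with a median of -0.38 for the 7 repressor and output genes together and -0.17 for the activators.

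With tumor, 3 of the 10 genes were called between genotypes, 1 higher and 2 lower in Tlr3-deficient cells, where 5.57% of 18294 genes were called, 2.9% higher and 2.67% lower. Dbp was 2.65-fold higher (1.40 log2), at levels of 2.74 in Tlr3-deficient and 1.34 in WT cells. Nr1d1 (0.81), Nr1d2 (0.68) and Tef (0.63) lay on the same side but were under 2-fold, and all 3 Nr1d1 probes (0.27 to 0.81) and all 4 Tef probes (0.04 to 0.63) were above 0. Per1 was 3.80-fold lower (-1.93), so Per1 and the group of Dbp, Nr1d1, Nr1d2 and Tef lay on opposite sides of 0. Npas2 was 2.07-fold lower (-1.05), a call that median centring (-0.99) and normexp (-0.61) ended. Arntl (-0.39), Per3 (-0.30), Per2 (-0.21) and Clock (-0.11) were under 2-fold. The repressor and output genes had a median of 0.63 and the activators -0.39, so their difference, 1.03, has the sign opposite to that of the tumor comparison in WT, with which it shares the WT tumor array. It was 0.68 with the mean of the members, 0.69 with the mean of all probes and 0.37 in columns 52 to 85.

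**Figure D4:**
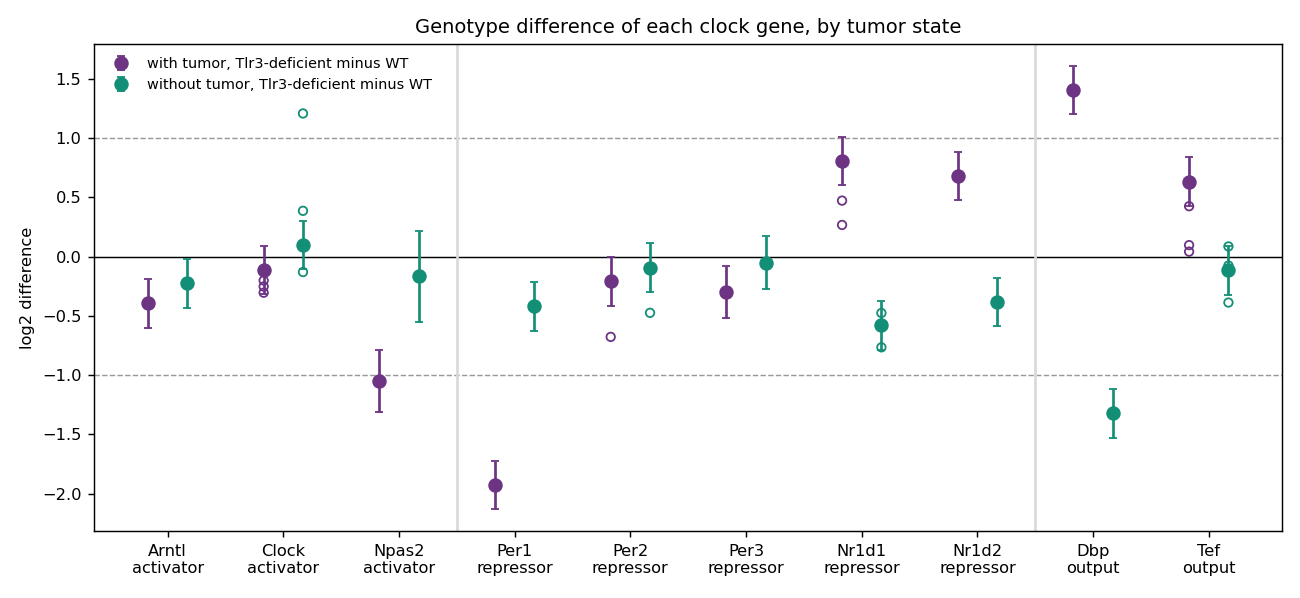
Log2 difference between Tlr3-deficient and WT mice for each clock gene, with tumor and without tumor, 1 array per group. Filled points are the brightest probe with the standard error of the scanner's error model and open points the gene's other probes. Dbp lies at 1.40 with tumor and -1.32 without tumor, and Per1 at -1.93 with tumor and -0.42 without.

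Of 19 further genes of the clock machinery, 17 were well above background on at least 1 array of each comparison, with Rorb and Arntl2 below. In WT, 1 was called higher and 1 lower with tumor. Ciart, which encodes CHRONO, a repressor of the BMAL1 and CLOCK pair, read -4.52 with and -2.88 without tumor on the Tlr3-deficient arrays, and -4.21 with and -2.07 without tumor on the WT arrays. It was low on both tumor arrays, with differences of -1.64 (3.13-fold) in Tlr3-deficient mice and -2.14 (4.39-fold) in WT mice. Csnk1e, which encodes a casein kinase that phosphorylates PER proteins, was by its brightest probe 2.27-fold higher with tumor in WT (1.18) and differed by -0.23 in Tlr3-deficient mice. Its level on the WT array without tumor (3.40) was the low one, where the other arrays lay between 4.58 and 4.86, and its probe sits in column 34 of the noisier part of that array. Among the genes under 2-fold, the cryptochromes took opposite signs, with Cry1 at 0.89 in Tlr3-deficient and 0.84 in WT mice, and Cry2 at -0.39 in Tlr3-deficient and -0.85 in WT mice. Hlf, the third PAR-bZIP factor, differed by -0.07 with tumor in Tlr3-deficient mice and by -0.97 in WT mice, and was called between genotypes with tumor (1.19). The list's median tumor difference was -0.02 in Tlr3-deficient mice, with Ciart the 1 gene called, and -0.16 in WT mice, where it ranged from -2.14 to 1.18.

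Genes known to follow the clock or glucocorticoids were read beside it, since glucocorticoids, the adrenal hormones that rise before waking, act on Per1 directly. Of 6 clock-controlled genes, none was called in WT and 2 were lower in Tlr3-deficient mice, Wee1 (-1.15), a kinase that holds back mitosis, and Tsc22d3 (-1.48). Their tumor differences ranged from -1.48 to 0.17 in Tlr3-deficient mice (median -0.10) and from -0.80 to 0.84 in WT mice (median -0.13). Of 10 glucocorticoid-induced genes listed 9 were measured, Tsc22d3 again among them, and 3 were called lower with tumor in Tlr3-deficient mice (median -0.64) and 2 in WT mice (median -0.37). They were Fkbp5 (-1.80), a chaperone partner of the glucocorticoid receptor, Tsc22d3 (-1.48), which encodes GILZ, and Sgk1 (-1.22), a kinase, in Tlr3-deficient mice, and Fkbp5 (-1.17) and Mt2 (-1.07), a metallothionein, in WT mice. All 9 were below 0 in Tlr3-deficient mice, from -1.80 to -0.27. In WT mice most were below 0 too, in a range from -1.17 to 0.22. The median over all genes tested was -0.01 in Tlr3-deficient and 0.00 in WT mice. Whether glucocorticoids had a part in the level of Per1 was not tested.

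**Figure D5:**
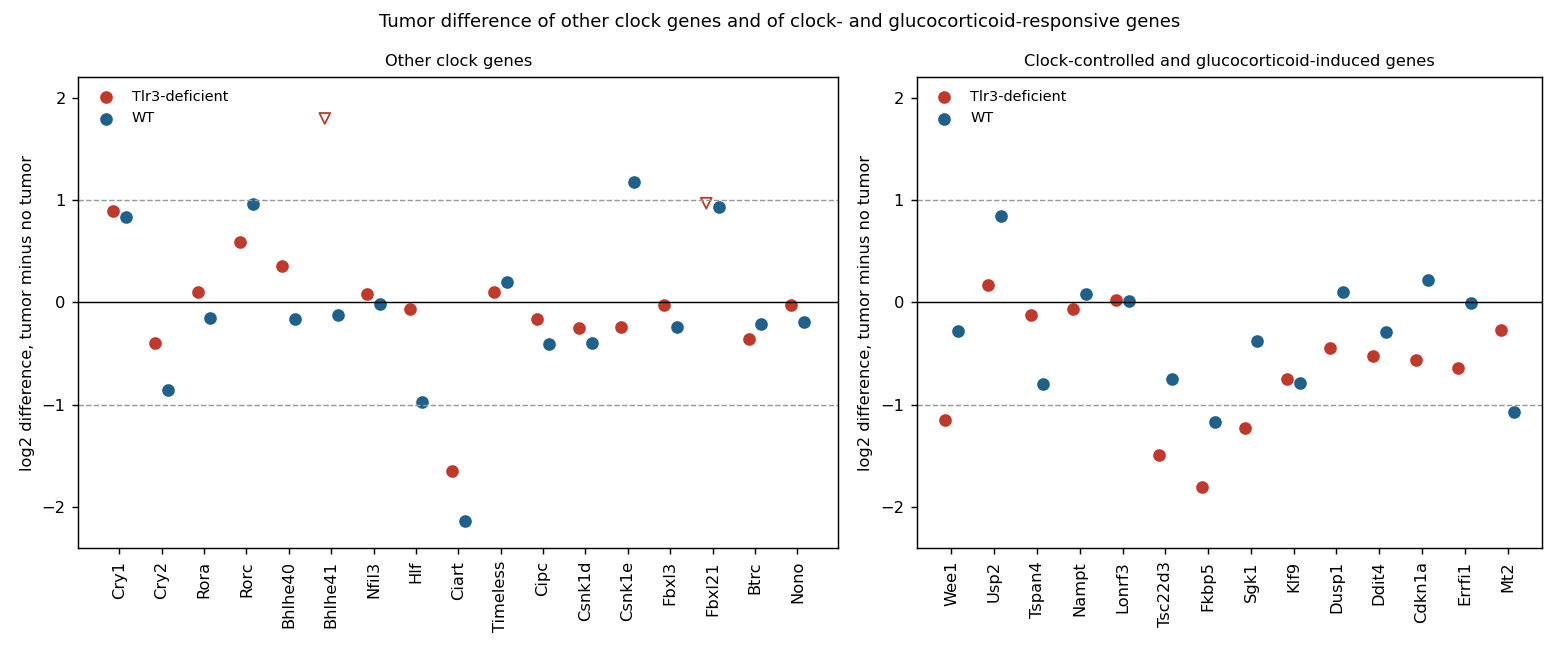
Log2 tumor difference of the other clock genes (left) and of clock-controlled and glucocorticoid-induced genes (right) in Tlr3-deficient and WT mice, 1 array per group. Open triangles mark genes not well above background on at least 1 array of the pair, dashed lines 2-fold. Ciart is low in both genotypes (-1.64 in Tlr3-deficient and -2.14 in WT mice), and Fkbp5 is the lowest glucocorticoid-induced gene in Tlr3-deficient mice (-1.80).

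Markers of other cell types moved with the tumor. Neutrophil markers were higher with tumor in both genotypes (12 of 12 each), with a summed level, in multiples of the 75th percentile, of 69.4 with and 3.60 without tumor in Tlr3-deficient cells and of 109 with and 4.05 without tumor in WT cells. The 12 markers were all well above background on both tumor arrays, and 6 of them on each array without tumor. Alveolar macrophage markers summed to 12.5 with and 4.35 without tumor in Tlr3-deficient cells (3 of 7 called higher). In WT cells they summed to 5.43 with and 5.94 without tumor (1 of 7 called higher). A sum leans on its brightest marker, here at a level of 3.24 with and 1.04 without tumor in Tlr3-deficient cells. The differences of single macrophage markers ranged from -0.36 to 2.77 in Tlr3-deficient cells (median 0.95) and from -0.75 to 1.26 in WT cells (median 0.01). Type I cell markers were lower in both genotypes (3 of 6 called each), with sums of 164 with and 257 without tumor in Tlr3-deficient cells and of 124 with and 194 without tumor in WT cells. Fibroblast markers summed to 23.0 with and 50.7 without tumor in Tlr3-deficient cells (3 of 6 called lower, median -1.05), and to 24.5 with and 29.8 without tumor in WT cells (0 of 6 called, median -0.41). T and NK cell markers were dim, with 3 of 6 tested called higher in Tlr3-deficient cells and 0 of 6 in WT cells, at sums of 0.46 with and 0.26 without tumor in Tlr3-deficient cells and of 0.38 with and 0.24 without tumor in WT cells. Among B cell markers 1 was called higher in each genotype, of 5 tested in Tlr3-deficient and 4 in WT cells. Endothelial (6) and club cell (3) markers had 0 called in either tumor comparison, with medians of -0.40 and 0.24 in Tlr3-deficient cells and of -0.31 and -0.42 in WT cells. Type II markers had 0 of 10 called in either, with sums of 1611 with and 1737 without tumor in Tlr3-deficient cells and of 1839 with and 1809 without tumor in WT cells. The part of other cells in the clock gene differences was not tested. In sorted bulk RNA, fewer cells of a type and less RNA per cell cannot be told apart.

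The genes with patterns most like those of Dbp and Arntl were found by the root mean square (RMS) difference of the 4 levels, each gene centred on its own mean, among the same 15806 genes. With 4 values per gene, such likeness is a description only. For Dbp these were Cd5l (RMS 0.26), a protein secreted by macrophages, P2ry14 (0.26), a receptor for UDP-sugars, Nr1d1 (0.34), Ccdc62 (0.36) and an unnamed transcript. Cd5l, P2ry14 and Ccdc62 were dim on the WT tumor array, at levels of -4.97, -5.11 and -5.13, where Dbp was at 1.34. Nr1d2 ranked 10th and Tef 16th in likeness to Dbp, while Per2 ranked 265th and Per1 14386th. For Arntl the nearest were Cfap157 (0.03), Kif9 (0.04), M1ap (0.04), 8030451A03Rik (0.04) and Ldlrad1 (0.05), of which Cfap157 belongs to the cilium and flagellum and Kif9 is a kinesin of flagella. Npas2 ranked 424th and Clock 5430th. A list of 8 ciliated cell markers, chosen after these neighbours were seen, had summed levels of 24.3 with and 21.2 without tumor in Tlr3-deficient cells (2 called higher) and of 32.6 with and 23.6 without tumor in WT cells (1 called higher). Their median tumor difference was 0.60 in Tlr3-deficient and 0.59 in WT cells, against 0.86 in Tlr3-deficient and 1.03 in WT cells for Arntl. Whether ciliated cells had a part in the level of Arntl was not tested.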

How the data were processed

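Total RNA of sorted cells was hybridised in 1 colour (Cy3) to the Agilent mouse array design 014868, 1 array per group. The authors' scanner files hold linear intensity from Agilent Feature Extraction 10.7.3.1 (protocol GE1_107_Sep09, annotation build mm9), background-subtracted and detrended within an array, per the file headers, and not scaled between arrays. The series' value table holds deposited log2 values, which have nearly equal medians (6.315 on 3 arrays and 6.317 on the WT tumor array) and correlate at r of at least 0.999 with log2 scanner intensity across probes. Its genes are uncentred and its direction is the scanners', its scaling is not given in the sources used, and it served as an alternative.

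Control spots and flagged spots were left out, spots of a probe averaged, and log2 intensity was taken minus the array's 75th percentile over 43379 gene spots. A gene was read by its brightest probe and tested where at least 1 array of a pair was well above background. The precision of every value is limited by the number of arrays. Differences and quantile normalization were computed with Python 3.11.15, numpy 2.4.6 and pandas 2.3.3. The normexp correction (offset 50) was computed with limma 3.58.1 in R 4.3.3, and the code was tested on simulated data. RefSeq accessions gave 27668 gene probes their current symbol, and other probes carry the symbol of the array design. Named were all 10 members with their probes, every gene of the clock, clock-controlled and glucocorticoid-induced lists called in a tumor comparison, with the rest as counts, medians and ranges (cell type markers as counts and sums), and the 5 nearest patterns to Dbp and to Arntl. Genes named beyond this rule (Cry1, Cry2 and Hlf) were chosen after their values were seen. The members and lists were chosen with earlier results of these data known. Alternatives were median centring, the percentile over probes well above background on all arrays, quantile normalization, normexp, the value table, the mean of all probes, other filters on dim probes, array columns 52 to 85 alone and a 1.5-fold threshold.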

Additional observations from a re-analysis of the deposited data

Results flagged for a closer look

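For Dbp, Nr1d1, Nr1d2, Tef and Clock the measured differences of the 2 genotypes, or of the 2 tumor states, had opposite signs on their single arrays. None of these differences was tested, since each group is 1 array. The share of all genes with opposite signs was not counted, so opposite signs cannot be called a trait of the clock genes. For Dbp the tumor difference was 0.04 in Tlr3-deficient and -2.68 in WT mice, and the genotype difference 1.40 with and -1.32 without tumor, a gap of 2.73 in both views. The value of 0.04 was -0.03 with normexp, so only the genotype view keeps opposite signs there. The genotype difference of Nr1d1 was 0.81 with and -0.58 without tumor, a gap of 1.39. That of Nr1d2 was 0.68 with and -0.38 without tumor, a gap of 1.07. Tef differed by 0.63 with and -0.12 without tumor, a gap of 0.75, and the second value is smaller than its error-model standard error of 0.20, with 1 of 4 probes above 0. For Clock the gap was -0.21 in both views (tumor differences of -0.08 in Tlr3-deficient and 0.13 in WT mice, genotype differences of -0.11 with and 0.10 without tumor). All 4 of these Clock values are smaller than the error-model standard error of 0.20, and with normexp all were below 0 (-0.15 and -0.04 for tumor, -0.15 and -0.04 for genotype), as were both tumor differences with median centring (-0.08 and -0.02). Every gap uses the array labelled Tlr3-deficient without tumor, which carries Y-linked transcripts.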

How the results depend on the processing

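Among the 9 alternatives, the filters on dim probes could not move a clock gene, since all clock gene probes were well above background. The mean of all probes could not move a gene with a single probe. The counts that follow include these fixed values. The 13 called differences of the clock genes kept their sign in all 113 values computed under 9 alternatives, and 103 of these values stayed at least 2-fold. Of 235 values of differences under 2-fold, 230 kept their sign and 0 reached 2-fold. The 5 that turned lay near 0: Clock with tumor in WT (2 alternatives) and without tumor between genotypes, Dbp with tumor in Tlr3-deficient mice (-0.03), and Per3 without tumor between genotypes (0.10), all with normexp except 1 with median centring. Beside the losses given in the report, Per2 was lost in array columns 52 to 85, by its dimmer probe (-0.43 in Tlr3-deficient and -0.20 in WT mice). These columns hold no probe of Dbp, Nr1d1 or Per3. There, 7 clock genes were measured. Of these, 1 was called with tumor in Tlr3-deficient mice, 4 in WT mice and 0 between genotypes without tumor. Over all genes, 370 higher and 228 lower of 9067 were called there with tumor in Tlr3-deficient mice. In WT mice 295 higher and 118 lower of 9221 were called, and between genotypes without tumor 208 and 225 of 8921. For the difference of tumor changes, whose alternatives were chosen after seeing the data, 2 clock genes were past 2-fold. With normexp 0 were called between genotypes without tumor, against 504 higher and 239 lower of 17666 genes tested. With the mean of all probes 1 was called with tumor in Tlr3-deficient mice, against 762 higher and 661 lower of 18179 genes tested. At 1.5-fold 4 were called with tumor in Tlr3-deficient mice, where 1861 genes were higher and 1830 lower of 18179 tested. Between genotypes with tumor 6 were called at 1.5-fold, where 1250 genes were higher and 1338 lower of 18294 tested.

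The median of repressor and output genes minus that of activators kept its sign throughout. Median centring, the other percentile and the filters on dim probes could not move this contrast, so they are no check of it. With the mean of members it was -1.22 with tumor in Tlr3-deficient mice, -2.22 in WT mice and 0.68 between genotypes with tumor. With columns 52 to 85 it was -1.02, -2.17 and 0.37 in the same comparisons, with normexp -0.69 in Tlr3-deficient and -1.86 in WT mice, and with the mean of all probes 0.69 between genotypes with tumor. Median centring moved the median of all genes to -0.15 with tumor in WT and -0.14 between genotypes without tumor, and the higher share of calls to 63.6% (78.4% before) and 61.9% (71.6% before). Quantile normalization gave a higher share of 66.3% with tumor in WT. Over all genes, calls with tumor numbered 820 higher and 708 lower in Tlr3-deficient mice and 1019 and 281 in WT mice, against 409 and 329, and 464 and 126, with normexp. No paired analysis was possible because each group is 1 array and the labels carry no shared replicate number, and for the same reason no replicate could be left out. The number of arrays and dim signal (Npas2 and Per3) limit what can be read.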
